A study of Mus musculus with 2 samples.

Results

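The 8 genes described here encode subunits of the NADPH oxidases, which make superoxide, and the superoxide dismutases, which remove it. They were chosen by symbol: Cybb, Cyba, Ncf1, Ncf4, Nox4, Sod1, Sod2 and Sod3, each present as 1 row of the 33696 genes in both deposited count matrices. The data are single-cell RNA-seq of the abdominal aorta of male C57BL/6J mice aged 5 months, taken at day 28, with 1 library per condition. The Control library came from mice given normal saline, and the AngII+HS library from mice infused with angiotensin II at 1500 ng/kg/min and given drinking water with 0.9% NaCl and 0.2% KCl, a model of abdominal aortic aneurysm (AAA). The series design describes 5 mice pooled per sample, whereas the extraction protocol names 1 control mouse and 2 AngII+HS mice. The question was which cells held the transcripts of these genes, and how their levels in phagocytes, vascular smooth muscle cells (VSMCs) and vascular endothelial cells (VECs) compared between the libraries.

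With 1 library per condition, no difference between conditions was tested, and every interval below covers counting error only, not the spread between mice. After filtering and doublet removal, 10269 Control cells (median 7274 unique molecular identifiers, UMIs) and 19734 AngII+HS cells (median 3065.5 UMIs) were retained. VSMCs made up 48.7% of the cells in Control and 3.18% in AngII+HS. Macrophages went from 4.87% to 22.9% of cells and neutrophils from 0.964% to 23.6%, while VECs were 8.16% and 6.10%. The barcode list deposited with each library had the length of the other library's matrix, so those lists were not used to label cells. The 2 lists shared 67 barcodes, and each matrix was taken as belonging to the sample it was recorded under. If the matrices rather than the lists were exchanged, every direction below would turn around.

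In the phagocyte oxidase, the catalytic subunit gp91phox (Cybb) sits in the membrane with its stabilising partner p22phox (Cyba), and cytosolic subunits including p47phox (Ncf1) and p40phox (Ncf4) join them when the cell is activated. Nox4 is a catalytic subunit of vascular wall cells that also needs p22phox but releases mainly hydrogen peroxide without the cytosolic subunits. Superoxide dismutases turn superoxide into hydrogen peroxide in the cytosol (Sod1, copper and zinc), the mitochondrial matrix (Sod2, manganese) and the extracellular matrix (Sod3, copper and zinc).

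All 8 are protein-coding genes. On GRCm39 (GENCODE annotation) Cybb lies at chrX:9301491-9354010 and Cyba at chr8:123150422-123159706, both on the minus strand. Ncf1 lies at chr5:134248907-134258479 on the minus strand and Ncf4 at chr15:78128982-78146784 on the plus strand. Nox4 spans chr7:86895304-87047918, Sod1 chr16:90017408-90027657, Sod2 chr17:13224095-13259591 and Sod3 chr5:52521070-52528883, all on the plus strand. RefSeq promoter windows of 300 bases, from 250 before to 50 after the start site, matched 6 of the 8 genes. They were searched on both strands for GAGGAA, the core of the motif bound by the myeloid factor PU.1, and for TGACNNNGC, the core of the antioxidant response element. GAGGAA was in 2 of the 6 windows and in 28.3% of 32851 promoters of that length. TGACNNNGC was in 1 of the 6, that of Sod1, and in 12.4% of all promoters. The window of Cybb, mostly a macrophage transcript below, is shown with that of Sod2, found in phagocytes and wall cells alike, and that of Nox4, a transcript of wall cells with neither motif. Capitals mark GAGGAA or its reverse complement. The windows, on GRCm38.p6, are chrX:9469275-9469574 (minus strand), chr17:13007589-13007888 (plus strand) and chr7:87246399-87246698 (plus strand).
Cybb: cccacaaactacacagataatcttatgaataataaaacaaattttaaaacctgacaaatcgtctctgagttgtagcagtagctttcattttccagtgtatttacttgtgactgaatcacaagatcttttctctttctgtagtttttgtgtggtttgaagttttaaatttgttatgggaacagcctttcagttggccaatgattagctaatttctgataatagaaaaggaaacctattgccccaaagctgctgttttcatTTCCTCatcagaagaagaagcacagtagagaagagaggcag
Sod2: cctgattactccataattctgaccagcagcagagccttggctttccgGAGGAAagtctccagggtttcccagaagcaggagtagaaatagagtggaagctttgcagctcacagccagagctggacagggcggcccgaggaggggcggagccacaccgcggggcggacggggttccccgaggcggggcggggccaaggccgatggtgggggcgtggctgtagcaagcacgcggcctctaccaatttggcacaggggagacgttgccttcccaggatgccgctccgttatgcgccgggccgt
Nox4: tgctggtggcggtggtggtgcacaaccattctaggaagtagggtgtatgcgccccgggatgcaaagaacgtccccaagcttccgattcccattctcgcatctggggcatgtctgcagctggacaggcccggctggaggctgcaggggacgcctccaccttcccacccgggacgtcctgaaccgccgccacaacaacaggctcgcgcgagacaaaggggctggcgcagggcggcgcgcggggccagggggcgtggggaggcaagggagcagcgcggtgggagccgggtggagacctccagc
A match is a description of the letters and not a bound site.

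The 4 phagocyte oxidase genes were all higher in the whole AngII+HS library, and Nox4 was lower. Levels are given as CPM, a gene's UMIs scaled to a common total of all UMIs in the same cells (counts per 1e6), which do not depend on gene length in this 3′ assay but do depend on capture of each transcript end. Cybb was at 22.3 CPM over all Control cells and 214 CPM over all AngII+HS cells. Cyba was at 110 and 474 CPM. Ncf1 was at 9.75 and 170 CPM, and Ncf4 at 3.47 and 60.8 CPM. Nox4 was at 545 CPM in Control and 135 CPM in AngII+HS. Sod1 was nearly level at 103 and 94.1 CPM. Sod2 was higher in AngII+HS, at 145 and 327 CPM, and Sod3 lower, at 414 and 241 CPM. A whole-library level mixes how many cells of each type were captured with how much each type contained, so each member was followed into its cell types.

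**Figure D1:**
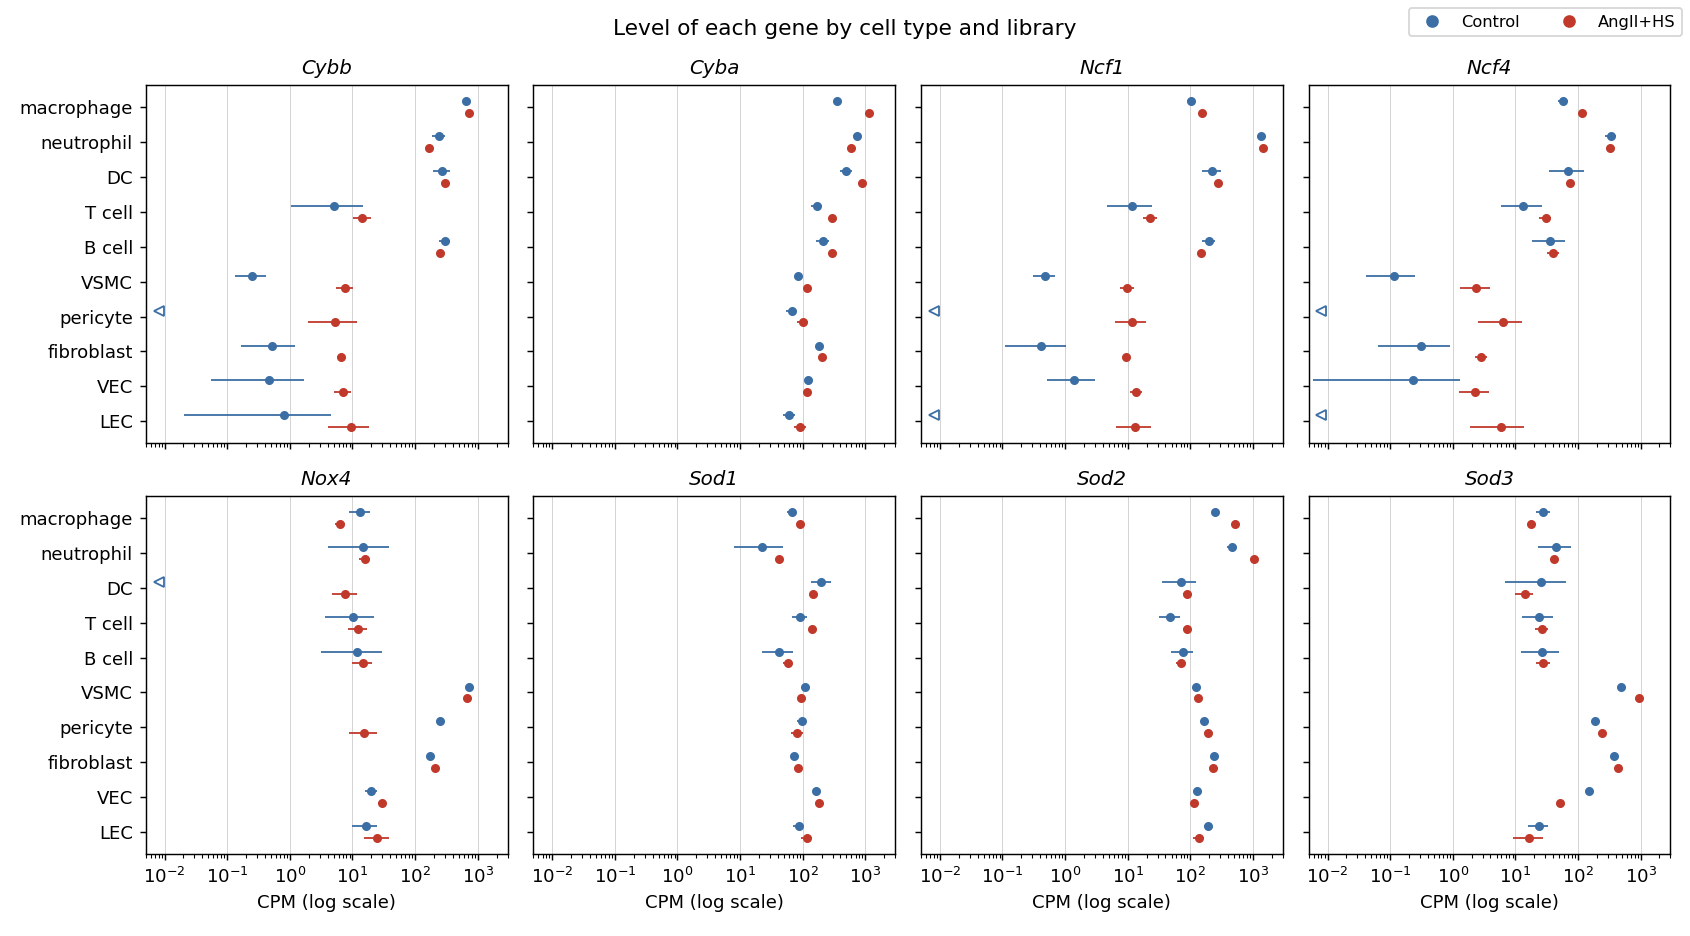
Level of each gene (CPM, log scale) in 10 cell types in Control (blue) and AngII+HS (red), with exact Poisson 95% intervals for counting error. Open triangles mark types with no UMI of the gene, drawn at the left edge. Cybb, Ncf1 and Ncf4 are higher in macrophages, neutrophils, dendritic cells (DC) and B cells than in T cells and wall cells. Nox4 and Sod3 are high in VSMCs and fibroblasts, and Cyba, Sod1 and Sod2 are found in every type shown.

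Cybb was mostly a macrophage transcript in both libraries. Macrophages held 85.8% of its 1679 Control UMIs (95% interval 84.0 to 87.4) and 82.9% of its 17246 AngII+HS UMIs (82.3 to 83.5). All leukocytes together held 98.3% and 98.2%. Ncf1 was above all a neutrophil transcript, with 49.9% of its UMIs in neutrophils in Control and 65.5% in AngII+HS. Ncf4 was divided between macrophages (49.0% and 46.8%) and neutrophils (34.9% and 41.0%). Cyba had different main sources in the libraries. VSMCs held 53.9% of its Control UMIs and macrophages 9.60%, whereas in AngII+HS macrophages held 58.9% and VSMCs 1.80%. Summed over Cybb, Cyba, Ncf1 and Ncf4, macrophages and neutrophils held 30.2% of 10944 UMIs in Control (29.3 to 31.1) and 78.3% of 74069 in AngII+HS (78.0 to 78.6).

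VSMCs were the main source of Nox4 and Sod3 in Control, and fibroblasts in AngII+HS. VSMCs held 92.1% of the Nox4 UMIs in Control and 36.8% in AngII+HS, and fibroblasts 4.16% and 53.2%. For Sod3 the VSMC share was 83.2% and 29.0%, and the fibroblast share 11.6% and 62.4%. Sod2 had 59.8% of its Control UMIs in VSMCs and 6.20% in macrophages and neutrophils, against 2.92% and 63.5% in AngII+HS. Sod1 was spread over several types in AngII+HS, with 31.1% in fibroblasts, 23.5% in macrophages, 14.9% in VECs and 7.37% in VSMCs. In Control 72.9% of its UMIs were in VSMCs.

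**Figure D2:**
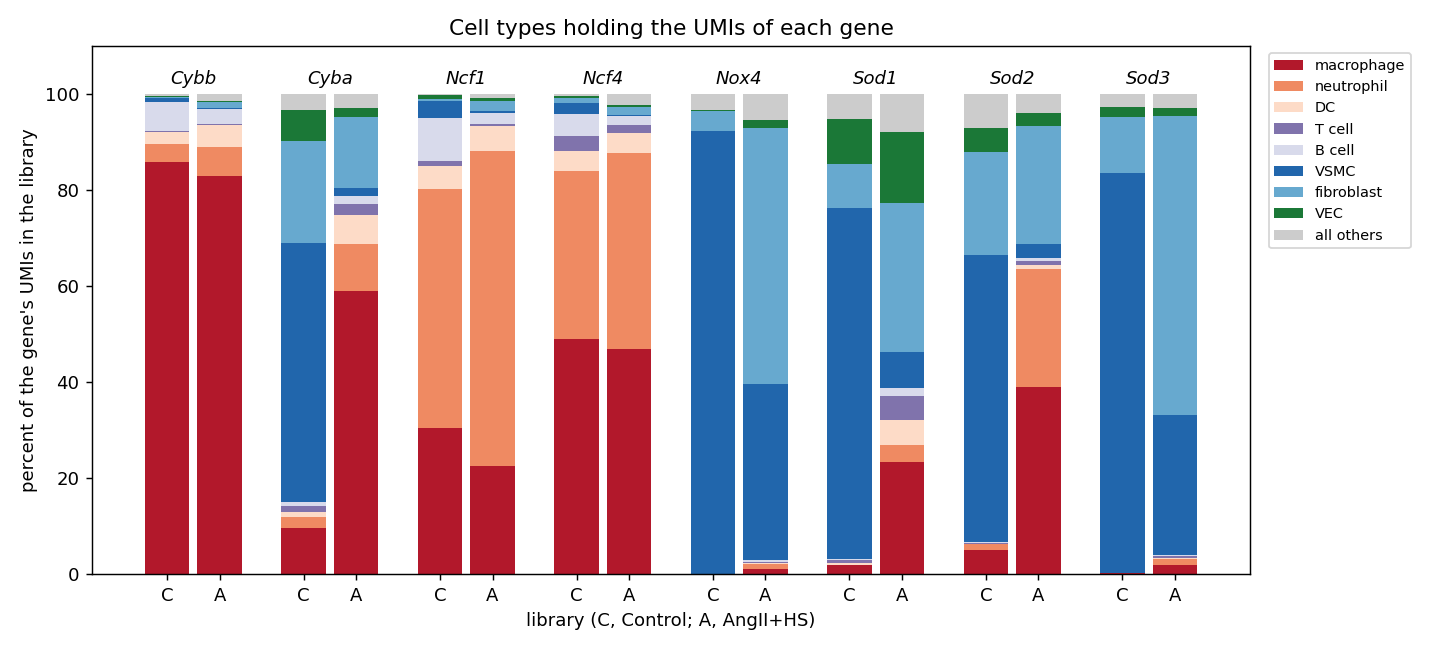
Percent of each gene's UMIs in a library that lay in each cell type (C, Control; A, AngII+HS). Macrophage and neutrophil segments fill most of the Cybb, Ncf1 and Ncf4 bars in both libraries, whereas for Sod2 they make up 6.20% in Control and 63.5% in AngII+HS.

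To separate the 2 parts arithmetically, the library level was recomputed with the cell composition of one library and the levels within types of the other. For Nox4 the measured log2 ratio of AngII+HS over Control was -2.02, and it was -2.04 with composition alone and -0.09 with levels alone. For Cybb the values were 3.26 measured, 3.16 with composition alone and 0.46 with levels alone. Ncf1 (3.87 and 1.11) and Ncf4 (3.69 and 1.16) had larger level parts. The level parts of Cybb, Ncf1 and Ncf4 all include the low levels in wall cells described below. For Cyba composition alone gave 1.24 and levels alone 0.55, against 2.11 measured. Sod3 was the only member whose parts had opposite signs, with -1.06 from composition and 0.82 from levels. Sod2 gave 0.58 and 0.13 against 1.18 measured. Fewer cells of a type in the tissue and fewer recovered by digestion cannot be told apart here.

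**Figure D3:**
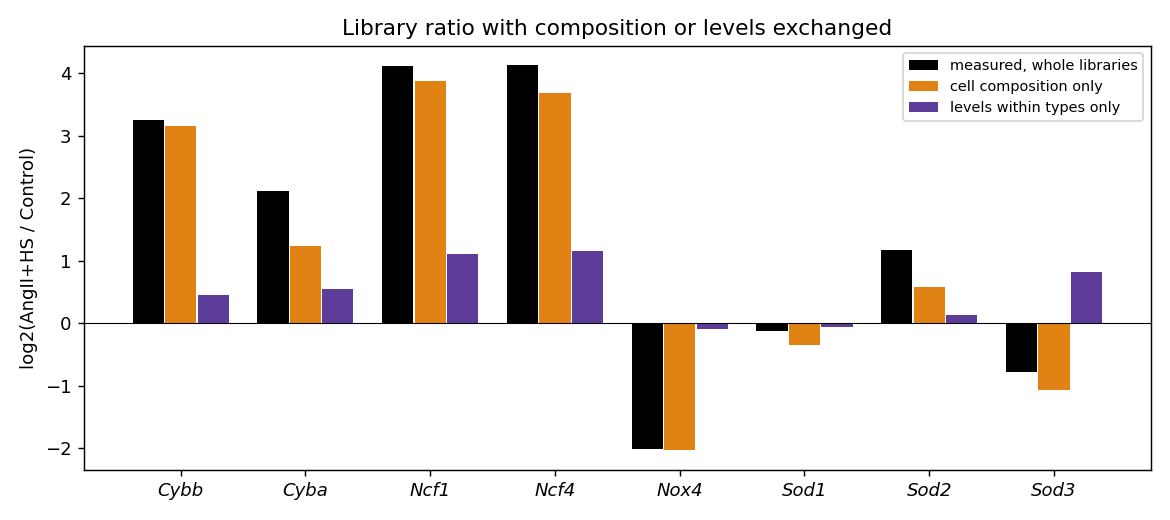
Log2 ratio of the whole-library level, AngII+HS over Control, as measured (black), with only the composition (UMI shares of the cell types) exchanged (orange) and with only the levels within cell types exchanged (purple). The black and orange bars of Nox4 are nearly equal (-2.02 and -2.04), and the orange and purple bars of Sod3 point in opposite directions (-1.06 and 0.82).

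Over all macrophages Cyba, Ncf1 and Ncf4 differed more between libraries than the catalytic subunit Cybb. Cybb was at 651 CPM in 500 Control macrophages (95% interval 618 to 685) and 718 CPM in 4512 AngII+HS macrophages (707 to 730), a log2 ratio of 0.14 (0.07 to 0.22). Cyba was at 359 CPM (334 to 385) and 1132 CPM (1117 to 1147), a log2 ratio of 1.66. Ncf1 was at 101 and 155 CPM (log2 ratio 0.62, 0.43 to 0.83) and Ncf4 at 57.8 and 115 CPM (0.99, 0.74 to 1.26). Among the dismutases, Sod2 was at 248 and 516 CPM (1.06, 0.93 to 1.18) and Sod1 at 66.4 and 89.4 CPM (0.43, 0.19 to 0.68). Of the 6 members with a UMI in at least 10% of macrophages of either library, 4 were past a log2 ratio of 0.5 upwards and 0 downwards. Over all 5472 such genes 22.0% were past it upwards and 26.5% downwards, with a median log2 ratio of -0.06. Nox4 (13.1 and 6.38 CPM) and Sod3 (28.0 and 17.9 CPM) in macrophages were low beside VSMCs, and free RNA from wall cells would give 20.3 and 6.93 CPM for Nox4 and 15.4 and 12.4 CPM for Sod3.

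The macrophages themselves were of different kinds in the libraries, which bears on these ratios. Of the Control macrophages 379 of 500 fell in a subcluster led by Lyve1, Cd163 and Slc39a12, called resident-like, against 1038 of 4512 in AngII+HS. Within it Cybb was at 546 and 740 CPM (0.44), Cyba at 258 and 540 CPM (1.06, 0.91 to 1.22) and Ncf4 at 28.6 and 66.8 CPM (1.22, 0.76 to 1.71). Sod1 there was at 50.9 and 104 CPM (1.03, 0.68 to 1.39) and Sod2 at 151 and 245 CPM (0.70, 0.49 to 0.91). Ncf1 there was at 83.3 and 98.6 CPM, and its interval of -0.05 to 0.54 included 0. In the subcluster led by Vcan, Cxcl3 and F10, with 41 Control and 1570 AngII+HS cells, Cybb went the other way, at 1421 and 725 CPM (-0.97, -1.11 to -0.83), and Sod2 was high in both at 818 and 895 CPM. Cyba there was at 688 and 1272 CPM (0.89). The lowest Cybb of the larger AngII+HS subclusters was 273 CPM, in 478 cells led by Ppbp, Hmox1 and Pf4, where Cyba was at 1377 CPM. Across the 4 large AngII+HS subclusters outside the resident-like one, Cyba lay between 1272 and 1377 CPM. Over the 7 subclusters found in both libraries, exchanging only the levels within subclusters gave log2 ratios of 1.04 for Cyba, 0.57 for Ncf4, 0.49 for Sod2 and 0.21 for Ncf1. Exchanging only the makeup, the UMI shares of the subclusters, gave 0.53, 0.79, 0.73 and 0.32. The subcluster led by Ppbp held 1 Control cell against 478 in AngII+HS. Those led by Ube2c and by Gzma, the latter with T cell genes, held 5 and 3 Control cells. Both sets of values thus rest in part on very few Control cells.

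Neutrophils carried the highest Ncf1 of any type, and it was similar in both libraries. Ncf1 was at 1347 CPM in 99 Control neutrophils (1213 to 1492) and 1444 CPM in 4658 AngII+HS neutrophils (1414 to 1474), a log2 ratio of 0.10 (-0.05 to 0.25). Ncf4 was at 335 and 323 CPM (-0.05, -0.35 to 0.27). Cyba was at 725 and 601 CPM (-0.27, -0.48 to -0.06), and Cybb at 239 and 167 CPM (-0.52, -0.88 to -0.13). Sod2 was at 467 CPM (390 to 556) and 1043 CPM (1017 to 1068), a log2 ratio of 1.16. Of the 6 members that passed the 10% filter, 1 was past 0.5 upwards and 1 downwards, beside 23.9% and 34.5% of 2977 genes. The latter, Cybb, passed the filter only through Control. All 99 Control neutrophils fell in a subcluster led by Ngp, Ly6g and Ifitm6 that held 1 AngII+HS cell, so the neutrophil ratios compare different clusters. The summed level of the 6 neutrophil markers was 126697 CPM in Control and 46198 CPM in AngII+HS.

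Within the AngII+HS neutrophils the subunits varied by subcluster. Cybb was at 90.1 CPM in 2334 cells led by Sh2d3c, Vps37b and Dedd2 and at 254 CPM in 1993 cells led by Bcl2a1d, Bcl2a1a and Mir155hg. Ncf1 was at 1181 and 1773 CPM and Sod2 at 879 and 1244 CPM in the same subclusters. Cyba was alike in these at 599 and 612 CPM. The GTPase Rac2, a direct partner, was lower in AngII+HS neutrophils, at 828 and 365 CPM (-1.18, -1.38 to -0.98). In macrophages Rac2 was at 103 and 110 CPM. Hvcn1, the proton channel that balances the charge moved by the oxidase, was at 11.3 and 32.4 CPM in macrophages (1.52, 0.94 to 2.16). Cybc1, a chaperone of the membrane subunits, was at 27.1 and 22.9 CPM there.

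**Figure D4:**
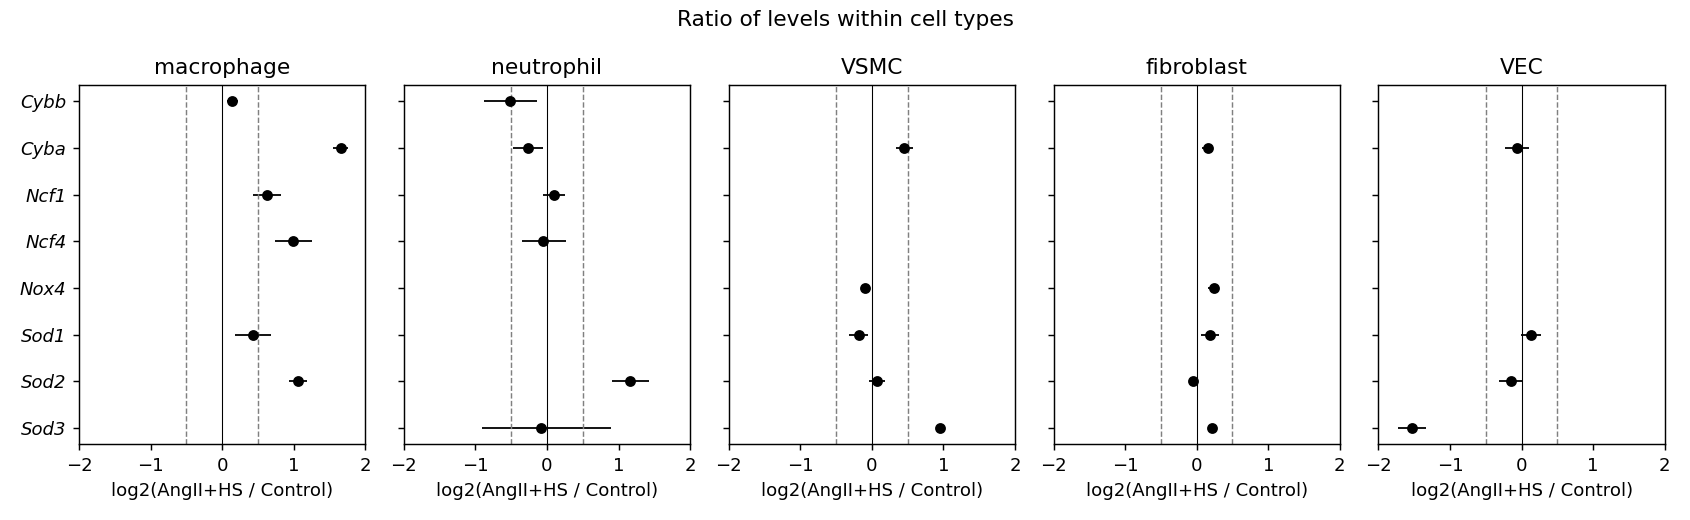
Log2 ratio of the level in AngII+HS over Control within 5 cell types, for members with a UMI in at least 10% of the cells of the type in a library, with exact 95% intervals for counting error; dashed lines mark 0.5 and -0.5. In macrophages Cyba (1.66), Sod2 (1.06), Ncf4 (0.99) and Ncf1 (0.62) lie past the upper line, and Sod3 lies at 0.95 in VSMCs and -1.53 in VECs.

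Detection was compared at equal depth by drawing 1000 UMIs from every cell that had as many (thinning). A Cybb UMI was found in 35.4% of Control macrophages (31.0 to 40.0) and 43.4% of AngII+HS macrophages (41.9 to 44.9), and without thinning in 67.2% and 73.7%. T cells, taken as a type without the gene, gave 0% of 129 cells (upper bound 2.82%) and 1.32%, with median depths of 4382.5 and 2308 UMIs against 4099 and 4060 in macrophages. A Cyba UMI was in 29.6% and 59.7% of macrophages. A Sod2 UMI was in 16.4% and 36.1% of macrophages and in 28.9% and 52.7% of neutrophils. For neutrophils 2 Control and 848 AngII+HS cells were too shallow to enter. Cybb and Cyba were found together in 12.6% of Control and 25.4% of AngII+HS macrophages, and in 8.25% and 3.52% of neutrophils.

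In VSMCs, Nox4 was at nearly the same level in both libraries and Sod3 was higher in AngII+HS. Nox4 was at 720 CPM in 5005 Control VSMCs (713 to 727) and 675 CPM in 628 AngII+HS VSMCs (654 to 696), a log2 ratio of -0.09 (-0.14 to -0.05). Sod3 was at 493 CPM (487 to 499) and 951 CPM (926 to 976), a log2 ratio of 0.95 (0.91 to 0.99). Cyba was at 84.8 and 116 CPM (0.46, 0.34 to 0.57), Sod1 at 107 and 94.5 CPM (-0.18, -0.31 to -0.06) and Sod2 at 124 and 130 CPM (0.07, -0.04 to 0.18). Of the 5 members that passed the filter, 1 was past 0.5 upwards and 0 downwards, beside 10.5% and 16.5% of 8173 genes. Sod3 was higher in AngII+HS in each of the 8 VSMC subclusters, with log2 ratios from 0.56 to 1.13. Nox4 was lower in 5 and higher in 3 of them, the highest ratio being 0.72 (0.48 to 0.96) in a subcluster led by Vcam1, Thbs1 and Timp1, with 40 Control and 90 AngII+HS cells. In that subcluster Nox4 was at 462 and 758 CPM. The summed level of the 5 VSMC markers was 27908 and 39113 CPM, and that of the 5 fibroblast markers 1567 and 3903 CPM, and their part in the Sod3 difference was not tested. After thinning, a Nox4 UMI was in 50.6% and 47.0% of VSMCs and a Sod3 UMI in 36.9% and 55.1%. The same shares in T cells were 1.55% and 0.753% for Nox4 and 2.33% and 3.11% for Sod3, at median depths of 9995 and 9168 UMIs in VSMCs and 4382.5 and 2308 in T cells.

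The phagocyte subunits were scarce in VSMCs. Cybb was at 0.25 and 7.61 CPM (13 and 45 UMIs), Ncf1 at 0.48 and 9.81 CPM and Ncf4 at 0.11 and 2.37 CPM. Free RNA, judged from neutrophil genes, would give 7.30 CPM of Cybb, 5.80 CPM of Ncf1 and 2.07 CPM of Ncf4 in AngII+HS VSMCs. A subcluster of 10 Control and 38 AngII+HS cells led by Il1b, S100a9 and Cd74 also carried leukocyte genes. Without it the AngII+HS levels were 2.39 CPM for Cybb, 6.62 CPM for Ncf1 and 1.29 CPM for Ncf4, while Sod3 stayed at 951 CPM and Nox4 at 675 CPM. In Control free RNA would give 0.25, 0.11 and 0.04 CPM in the same order. Cybb was thus close to the free RNA level in both libraries, and Ncf1 above it in both. After thinning 0.637% of AngII+HS VSMCs had an Ncf1 UMI against 2.26% of T cells. Whether VSMCs express Ncf1 was not tested. Nox1, another oxidase of smooth muscle, was at 1.73 and 1.35 CPM, and Poldip2, a Nox4 partner, at 20.7 and 24.9 CPM.

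Pericytes and fibroblasts were the other named wall sources described. The cells left unnamed held 2.38% of the Nox4 UMIs in Control and 4.89% in AngII+HS, against 0.918% and 0.156% in pericytes. In these unnamed cells Nox4 was at 554 and 436 CPM and Sod3 at 309 and 144 CPM. Nox4 was at 254 CPM in 177 Control pericytes (229 to 281) and 15.2 CPM in 218 AngII+HS pericytes (8.83 to 24.3), a log2 ratio of -4.07. Free RNA would give 13.9 CPM in the latter. The summed VSMC markers were at 29158 CPM in Control and 19258 CPM in AngII+HS pericytes, and the summed pericyte markers at 2235 and 5219 CPM. In VSMCs the same sums were 27908 and 39113 CPM, and 5657 and 6155 CPM. By these sums the Control cells called pericytes did not stand apart from VSMCs, so the name is less certain for them. The part of such smooth muscle-like cells in the Nox4 difference was not tested. In fibroblasts Nox4 was at 174 and 205 CPM (0.24, 0.16 to 0.31) and Sod3 at 370 and 430 CPM (0.22, 0.16 to 0.27). Of the 5 members that passed the filter in fibroblasts, 0 were past 0.5 in either direction, beside 9.23% upwards and 13.1% downwards of 6210 genes.

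In VECs, Sod3 was lower in AngII+HS, opposite to VSMCs. It was at 151 CPM in 838 Control VECs (139 to 163) and 52.3 CPM in 1203 AngII+HS VECs (46.8 to 58.4), a log2 ratio of -1.53 (-1.72 to -1.33). Of the 4 members that passed the filter, 1 was past 0.5 downwards and 0 upwards, beside 12.4% and 17.0% of 6583 genes. The level was concentrated in the 2 subclusters called arterial-like, led by Ptprj, Klk10 and Pkhd1l1 (304 and 197 cells) and by Gadd45b, Sdc4 and Cish (112 and 126 cells). There Sod3 was at 263 and 141 CPM (-0.90, -1.21 to -0.59) and at 253 and 125 CPM (-1.02, -1.34 to -0.71). In the capillary-like subcluster led by Lpl, Rbp7 and Btnl9, which held 145 Control and 445 AngII+HS cells, Sod3 was at 22.5 and 24.6 CPM, an interval of -0.77 to 1.09. It was also lower in the venous-like subcluster, with a log2 ratio of -1.28 (-2.30 to -0.22) from 15 and 21 UMIs, and in one led by Dkk2, Alpl and Sema3g, at 55.2 and 18.4 CPM (20 and 5 UMIs). The intervals of these 4 lay below 0, and that of the capillary-like one included 0. In Control venous-like cells, however, Sod3 was already near its level in capillary-like cells and T cells. The subcluster led by Dkk2 matched arterial-like cells best, with a score too low for a name. Whether Sod3 was lower outside arterial-like cells was therefore not settled by these counts. The makeup of the VECs also differed, since arterial-like cells were 416 of 838 Control VECs and 323 of 1203 AngII+HS VECs. Over the 7 subclusters found in both libraries, exchanging the makeup alone, as UMI shares of the subclusters, gave a Sod3 log2 ratio of -0.66. Exchanging the levels within subclusters alone gave -0.92, against -1.53 measured. The VEC ratio thus also holds the mix of subclusters captured. Free RNA, judged from neutrophil genes, would give 9.61 CPM of Sod3 in Control and 12.2 CPM in AngII+HS VECs. Judged from macrophage genes it would give 35.2 and 13.8 CPM.

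The other members differed less over all VECs, but not in every subcluster. Cyba was at 122 and 116 CPM (-0.07, -0.23 to 0.10), Sod1 at 166 and 182 CPM (0.13, an interval that included 0) and Sod2 at 127 and 115 CPM (-0.15, -0.31 to 0.01). In the venous-like subcluster led by Csf3, Ackr1 and Mctp1, Sod2 was at 306 CPM in 94 Control cells and 116 CPM in 254 AngII+HS cells (-1.40, -1.68 to -1.11). In the capillary-like cells it was at 58.6 and 101 CPM (0.78, 0.27 to 1.33). Nox4 was low over all VECs, at 19.9 and 29.4 CPM, and was found in under 10% of them, so it was not counted among the genes that passed the filter. Free RNA would give 12.7 and 6.82 CPM of Nox4 in VECs judged from neutrophil genes, and 46.4 and 7.74 CPM judged from macrophage genes. In the arterial-like subcluster led by Ptprj and Klk10, Nox4 was at 16.1 CPM in Control (19 UMIs, 9.67 to 25.1) and 92.0 CPM in AngII+HS (79 UMIs, 72.9 to 115), a log2 ratio of 2.52 (1.78 to 3.32). The share of cells with a Nox4 UMI there was 4.61% and 22.8%, and 1.70% and 8.20% after thinning. The other VEC subclusters did not show this rise beyond counting error. Nox4 was at 33.1 and 38.6 CPM in the arterial-like subcluster led by Gadd45b (0.22, -0.47 to 0.92), at 30.1 and 24.1 CPM in the venous-like one and at 10.5 and 5.17 CPM in the capillary-like one. In the Ptprj and Klk10 cells the summed VSMC markers were at 824 CPM in Control and 1135 CPM in AngII+HS, and the summed fibroblast markers at 203 and 859 CPM. In the Gadd45b cells, where Nox4 was nearly level, these sums were 740 and 1410 CPM and 257 and 812 CPM. In T cells they were 783 and 814 CPM and 97.7 and 662 CPM. The smooth muscle gene Myh11, picked from the 5 VSMC markers, was lower in the Ptprj and Klk10 cells, at 85.4 and 29.1 CPM. It was also lower in the Gadd45b cells, at 68.9 and 16.2 CPM, although the marker sums were higher in both. Myh11 was likewise lower in T cells (113 and 66.1 CPM) and macrophages (119 and 36.5 CPM), so nothing is read from this gene alone. In VSMCs themselves the summed VSMC markers were at 27908 and 39113 CPM, and in fibroblasts the fibroblast markers at 17343 and 37402 CPM. The part of RNA or cells of these types in the Nox4 difference was not tested. The phagocyte subunits in VECs, such as Cybb at 0.46 and 7.11 CPM, were low. Free RNA would give 10.8 CPM of Cybb in AngII+HS VECs. Ncf1 there was at 13.7 CPM beside 8.60 CPM from free RNA, and after thinning 0.980% of AngII+HS VECs had an Ncf1 UMI, below the T cell share. In Control it was at 1.39 CPM beside 0.23 CPM. Whether VECs express Ncf1 was not tested.

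**Figure D5:**
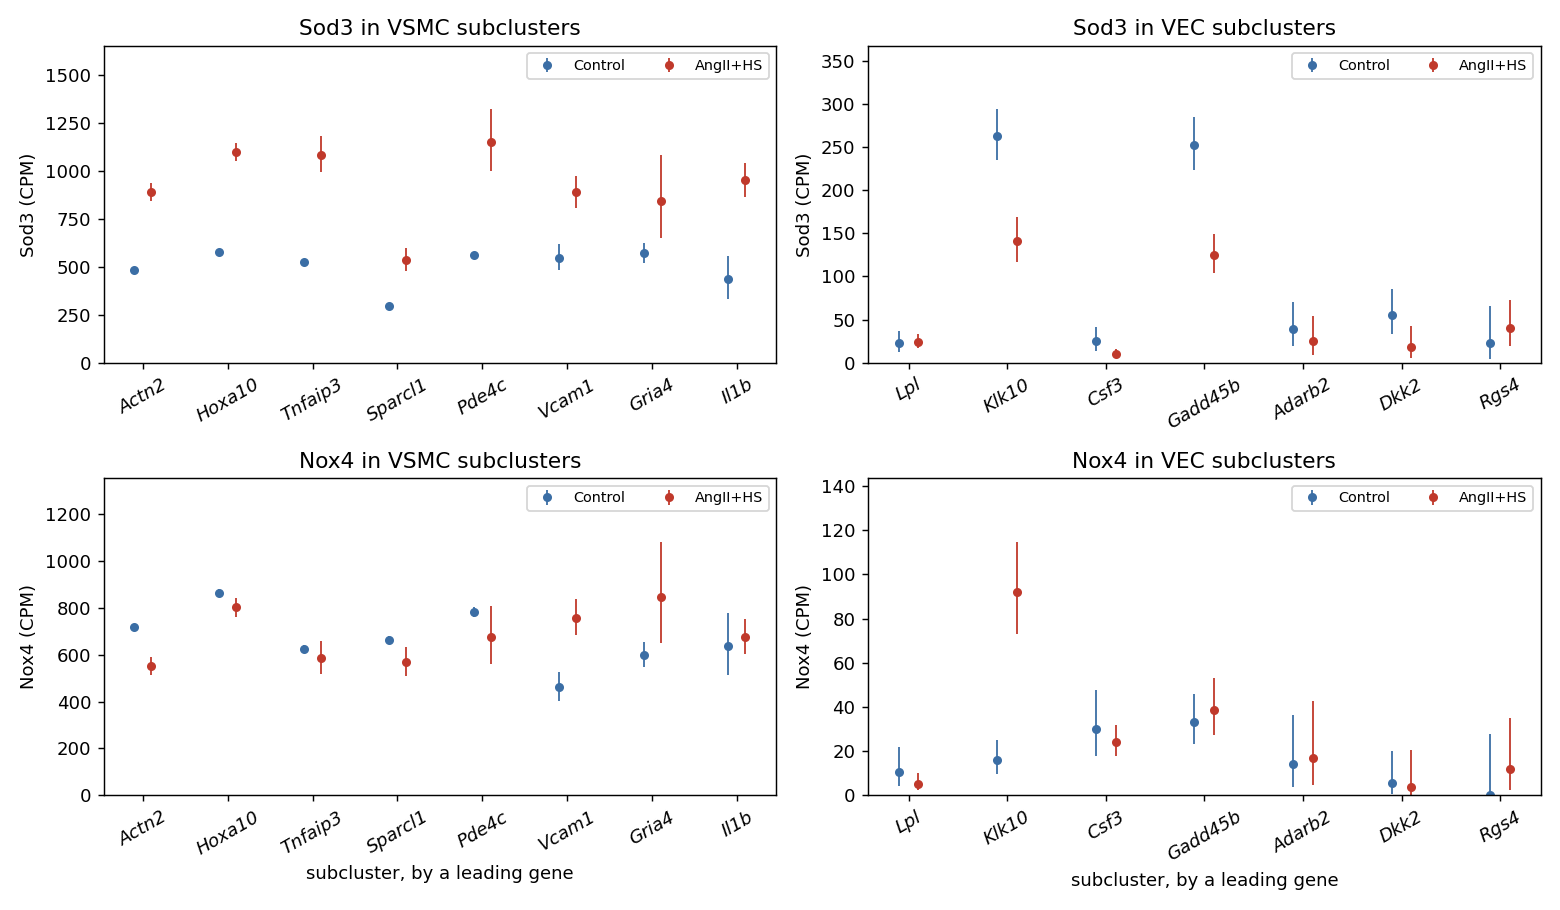
Level (CPM) of Sod3 (top) and Nox4 (bottom) in subclusters of VSMCs (left) and VECs (right) with at least 10 cells in each library, Control in blue and AngII+HS in red, with exact Poisson 95% intervals for counting error; each subcluster is labelled by a leading gene. Sod3 is higher in AngII+HS in all 8 VSMC subclusters and lower in 5 of the 7 VEC subclusters, and Nox4 is at 16.1 and 92.0 CPM in the Klk10 subcluster and at 33.1 and 38.6 CPM in the Gadd45b one.

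The genes whose pattern over 22 combinations of cell type and library was most like each member, among 14035 genes, followed the same division. The points share libraries, so the Pearson r values are a description. For Cybb they were Irf5, Syk and Spi1 (r = 0.96, 0.96 and 0.95), the last of which encodes PU.1. For Cyba they were Stxbp2, Tyrobp and Itgb2 (0.92 to 0.89). Ncf1 and Ncf4 were in each other's first 3, with r = 0.96. For Nox4 the first was Ccn2, a secreted matricellular protein (r = 0.94), which was also second for Sod3 (0.95) after Wfdc1. For Sod2 they were Cebpb, Rab20 and Alas1 (0.87 to 0.86). Sod1 had the lowest values, 0.83 to 0.82 for Serpinb9, Cdc37 and Cmc1.

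The hydrogen peroxide that dismutases make is removed by catalase, glutathione peroxidases, peroxiredoxins and thioredoxins, a list of 19 genes. In macrophages 15 of them passed the 10% filter, 6 were past 0.5 upwards and 1 downwards, with a median log2 ratio of 0.34, beside 22.0% upwards, 26.5% downwards and a median of -0.06 over all genes that passed. Thioredoxin (Txn1, log2 ratio 2.50, 2.36 to 2.65) and the peroxiredoxins Prdx6 (2.46, 2.22 to 2.71) and Prdx5 (1.89, 1.76 to 2.03) had the largest ratios, and Txnip, an inhibitor of thioredoxin, was at -1.22. In VSMCs 17 passed, 6 were past 0.5 upwards and 1 downwards, with a median of 0.32, beside 10.5%, 16.5% and -0.02 over all genes. They were led by Gpx8 (1.61, 1.48 to 1.73), Gpx1 (1.10) and Prdx5 (1.04), with Txnrd1, thioredoxin reductase, at -0.90. In VECs 15 passed, with 7 upwards, 0 downwards and a median of 0.41, beside 17.0%, 12.4% and 0.05 over all genes. They were led by Txn1 (1.03, 0.93 to 1.13) and Prdx1 (0.91). In neutrophils 10 passed, with 3 upwards, 2 downwards and a median of 0.15, beside 23.9%, 34.5% and -0.14 over all genes. Prdx1 (2.69, from 6 Control UMIs) and Prdx6 (1.33) were among those upwards, and Glrx (-1.83) and Gpx1 (-0.59, named after its value was seen) were those downwards. Prdx1 in neutrophils passed the filter only through AngII+HS, as did 1 of the 7 in VECs. 

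The remaining pathway genes were fewer. Of 15 oxidase partner genes, 6 passed the filter in macrophages with 1 past 0.5 upwards (Hvcn1), 4 in VSMCs with 1 upwards (Cybc1 at 9.06 and 14.2 CPM) and 2 in VECs with 0 in either direction. Hvcn1 and Cybc1 passed the filter only through AngII+HS, where they were high (in 3.60% and 11.7% of macrophages and in 8.81% and 12.1% of VSMCs), so nothing is read from these counts. Rac1, the GTPase used in wall cells, was at 232 and 252 CPM in VSMCs and 485 and 443 CPM in VECs. Among the 4 copper supply genes, 1 was past 0.5 in each direction in macrophages (of 3 that passed), VSMCs (of 4) and neutrophils (of 2). The one upwards was Atox1, a copper chaperone that serves the secretory pathway in which Sod3 is loaded (1.59, 0.80 and 0.73). The one downwards was Atp7a, the transporter that brings copper into that pathway, in macrophages (-0.67) and neutrophils (-0.99), and the copper importer Slc31a1 in VSMCs (-0.62). In VECs Slc31a1 was past 0.5 upwards (0.60) and none of the 4 was downwards. Atp7a in neutrophils and Slc31a1 in VECs passed the filter only through the library where they were high, so nothing is read from their direction. Of the 9 genes of the Nrf2 list, which answers oxidants, 2 were past 0.5 upwards and 1 downwards of 6 that passed in macrophages and of 5 in neutrophils, 0 and 1 of 7 in VSMCs, and 1 and 0 of 6 in VECs. Over all genes the shares were 22.0% and 26.5%, 23.9% and 34.5%, 10.5% and 16.5%, and 17.0% and 12.4% in the same order, and counts this small were not set apart from them. The 1 downwards in neutrophils and the 1 upwards in VECs passed the filter only through the library where they were high. Gclc, a subunit of the enzyme that starts glutathione synthesis, was at -0.94 in VSMCs and -0.70 in macrophages, Slc7a11, the cystine transporter, at 1.12 in macrophages, and Hmox1, heme oxygenase, at 1.47 in neutrophils. Of 5 genes for other oxidant sources, Xdh, which encodes xanthine dehydrogenase, was at -2.12 in neutrophils and -0.55 in macrophages, and Maoa, a monoamine oxidase, at -1.23 in macrophages. Xdh in neutrophils and Maoa in macrophages passed the filter only through Control, where they were high, so nothing is read from their direction.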

How the data were processed

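The authors dissociated abdominal aortas and prepared 1 droplet 3′ library per condition. The deposited matrices hold UMI counts per gene and cell, not normalized, made by the authors with Cell Ranger (8.0.1 per the file headers; the study's methods name an earlier version). The labels name mm10 and the methods GRCm39, so the build was not settled. Barcodes below 500 UMIs or 200 genes, or with 20% or more mitochondrial UMIs, were dropped. Scrublet doublets were removed at 0.8% per 1000 cells (1019 of 11288 Control and 4826 of 24560 AngII+HS cells). Clusters came from Seurat anchor integration on 2000 variable genes without the 8 members, 30 components and resolution 0.8, with 20 components and resolution 0.4 for subclusters. Clusters were named from marker lists, with monocytes counted among macrophages and NK cells among T cells. Subcluster names needed at least 3 detected markers and a score above 1, a rule chosen after the clusters were seen. Members and lists were chosen with earlier results of these data known.

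The UMIs of a gene were added up within each cell type of a library and divided by all UMIs of those cells (CPM), with exact Poisson intervals. Shares have exact Clopper-Pearson intervals, and ratios exact conditional binomial ones, all at 95% and for counting error only. A log2 ratio past 0.5 was counted among genes with a UMI in at least 10% of the cells of the type in either library. A gene that passed this filter only through the library where it was high had to differ. The free RNA level is the CPM over all cells times the ratio of index genes, neutrophil genes for wall cells and wall genes for leukocytes, in the type to all cells. Macrophage genes were used as a further index for Sod3 and Nox4 in VECs. Likeness used log2(CPM + 5). Named genes were the 8 members, the direct oxidase partners (1 is not reported here), up to 4 genes of each list past 0.5 with at least 200 UMIs in macrophages, neutrophils, VSMCs or VECs, the 3 most alike genes and the 3 leading genes of subclusters. The ratio code was tested on simulated data. The exchange of subcluster makeup, taken as UMI shares, and levels was added after the data were seen. Alternatives varied doublet removal, cell filter, clustering, scaling and fold. The erythroid cluster, led also by Csf1r, was not described, and for the unnamed cells (453 Control, 303 AngII+HS) only Nox4 and Sod3 were given.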

Additional observations from a re-analysis of the deposited data

Results flagged for a closer look

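Sod3 differed in direction between VSMCs and VECs. Its log2 ratio of AngII+HS over Control was 0.95 in VSMCs and -1.53 in VECs, with each interval for counting error past 0.5 in its direction. It is listed here because the only sample pair moved one way in one cell type and the opposite way in the other. The difference between the cell types was not tested, since there was 1 library per condition. With only the levels within VEC subclusters exchanged, the VEC ratio was -0.92.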

How the results depend on the processing

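No paired analysis was possible because there was 1 library per condition, and for the same reason no library could be left out. Across 13 alternatives, 2 of them added after the data were seen, the 10 member ratios past 0.5 gave 112 values, of which 111 kept their sign and 108 stayed past 0.5. The exceptions were Cybb in neutrophils (-0.44 with double the doublets removed, -0.49 with the stricter cell filter) and Cyba in pericytes (0.58 as reported, 0.48 with TMM factors, -0.38 with free RNA subtracted). Among the 10, Cybb in neutrophils and Nox4 in pericytes passed the 10% filter only through Control, where they were high. These had to differ, so nothing is read from their kept signs. Sod3 ranged from 0.86 to 1.05 in VSMCs and from -1.81 to -1.04 in VECs, Cyba in macrophages from 1.47 to 1.86, and Nox4 in pericytes from -7.68 to -2.09. Ratios not past 0.5 as reported also moved. In VECs Cyba ranged from -0.37 to 0.78 and Sod2 from -0.34 to 0.42, so how level they were there depended on the processing.

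With no doublets removed, 4 members were higher past the fold in VSMCs, 3 higher and 2 lower in VECs, 14 pathway genes were higher in VSMCs and 1 lower in VECs, and macrophages and neutrophils held 26.7% of the 4 subunits' UMIs in Control and 64.6% in AngII+HS. With double the doublets removed these shares were 32.5% and 81.0%, and 0 members were lower in neutrophils, as with the stricter cell filter, under which the AngII+HS share was 77.9%. That share was 78.7% at resolution 0.4 and 77.0% with the members kept among the variable genes. With a log2 ratio past 1 as the fold, 2 members were higher in macrophages, 0 lower in neutrophils and 0 higher in VSMCs. TMM factors gave 2 members higher in VSMCs and 2 pathway genes lower in macrophages, equal weight per cell 3 of the latter, and free RNA subtraction 2 members lower in neutrophils. With genes of at least 20 UMIs in place of the 10% filter, 9 pathway genes were lower in macrophages (5 as reported), 18 higher and 11 lower in neutrophils (6 and 7), 13 higher in VSMCs (8), and 18 higher and 2 lower in VECs (10 and 0). Apart from the direct construction of these alternatives, the cause was not tested. Without thinning every share of cells with a UMI was larger.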

Other observations

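In lymphatic endothelial cells, 138 in Control and 156 in AngII+HS, Sod2 was at 189 and 135 CPM (log2 ratio -0.48, -0.82 to -0.15). B cells carried Cybb at 297 CPM in 100 Control and 248 CPM in 996 AngII+HS cells, and Ncf1 at 197 and 148 CPM. Dendritic cells carried Cyba at 495 and 890 CPM and Sod1 at 197 and 148 CPM, from 32 Control and 517 AngII+HS cells. The 165 plasma cells, all from AngII+HS, had Cybb at 125 CPM and Ncf1 at 25.6 CPM. Control had 0 plasma cells, and with 3 cells as the limit their share could be up to 0.0292%.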
